A study of Mus musculus with 50 samples.

Results

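The 33 genes described here act in the repair of DNA double-strand breaks. They were taken from a list of symbols, by a rule that uses no measured value but with earlier results of these data known, and matched by Ensembl identifier to the 37469 rows of the count table. All 33 were found. They comprised 12 genes of homologous recombination, 4 of the Fanconi pathway, 7 of classical end joining, 2 of alternative end joining and 8 of checkpoint signaling and break sensing. For summaries, the first 2 classes (16 genes) were set beside the other 3 (17 genes).

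Homologous recombination copies the sister chromatid to restore a broken end and is therefore used in S and G2 phase, when its genes are most expressed, and the Fanconi pathway feeds crosslink repair into the same machinery. Classical end joining ligates the ends directly throughout the cell cycle, alternative end joining seals ends that share short stretches of sequence, and the sensing kinases mark the break and halt the cycle. Ionizing radiation kills tumor cells largely through such breaks.

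RNA was sequenced from 48 mouse sarcomas. Primary p53/MCA tumors were induced in 6 to 10 week old Trp53 fl/fl mice on the 129/SvJae background by injecting the gastrocnemius with Adeno-Cre, an adenovirus carrying Cre recombinase that deletes Trp53, and then 300 µg of the carcinogen MCA. Transplant tumors grew from 50000 cells of one line, 402230, made from an untreated primary tumor and injected into the same muscle of syngeneic mice, so all 16 transplants descended from a single parental tumor while each of the 32 primary tumors arose on its own. When tumors reached about 150 mm3, mice received 200 µg of an anti-PD-1 antibody or its isotype control and then at once 0 or 20 Gy to the hind limb, and tumors were harvested 3 days later. Each of the 4 treatments held 8 primary and 4 transplant tumors. All groups thus shared deletion of Trp53 in tumor cells, and isotype antibody at 0 Gy was the untreated control. A further pair of single libraries, labelled as the parental tumor of line 402230 and as the cell line itself, was left out of the main tests.

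The 48 tumor libraries held 31810461 to 54008259 counts, and the lowest count of any of the 33 genes in any tumor was 53. Nhej1, at 68 to 161 counts, was the least counted of them at its highest, and for such genes counting error adds to the spread between tumors. Trp53 itself was measured at 20.2 to 60.7 CPM across the 48 tumors, where CPM is a count rate relative to the library total, scaled by TMM. A count summed over the whole gene does not separate an allele with deleted exons from an intact one, and so does not check the deletion. Markers of mesenchyme, macrophages, T cells and endothelium were present in all 48 tumors. Skeletal muscle markers varied most, with the summed level of 9 markers between 65.8 and 7953 CPM in unirradiated and between 13.6 and 84930 CPM in irradiated primary tumors. In bulk tumor RNA, fewer cells of a type and less RNA per cell cannot be told apart.

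At 0 Gy the genes differed widely in level. In the 16 unirradiated primary tumors, level per length was highest for Parp1, the poly(ADP-ribose) polymerase that binds broken ends, at 23.1 ± 5.01 CPM per kb of exon (mean ± SD, n = 16). It was followed by Xrcc5, the larger Ku subunit that caps ends for classical joining, at 15.4 ± 3.46, and by Nbn, a subunit of the MRN break sensor, at 11.8 ± 2.06 CPM per kb. Xrcc6, the smaller Ku subunit, stood at 11.0 ± 2.08 CPM per kb, within the spread of Nbn. The lowest levels per length were those of Atr, the kinase that answers replication stress, at 0.782 ± 0.161 CPM per kb, and Brca2, a mediator of strand exchange, at 0.903 ± 0.332 CPM per kb. These neighbors at the low end did not differ beyond their spread. All 16 recombination and Fanconi genes lay at or below 3.45 CPM per kb. Several genes of the other classes lay there too, among them Polq at 0.925, Dclre1c at 1.39 and Chek1 at 3.06 CPM per kb.

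The first question was how the genes responded to 20 Gy in primary tumors. Averaged over both antibodies, 15 of the 33 genes were lower and 2 were higher 3 days after radiation at an adjusted p under 0.05 (edgeR quasi-likelihood test with Benjamini-Hochberg adjustment over all 19327 genes tested). Across all genes tested, 14.2% were lower and 16.8% were higher. The median log2 fold change of the 33 genes was -0.36, against 0.00 for all genes tested, and 30 of the 33 were below 0. Of the recombination and Fanconi genes, 9 of 16 fell and 1 rose, with a median of -0.41. Of the end joining and checkpoint genes, 6 of 17 fell and 1 rose, with a median of -0.17. Of these 17 calls, those of Fancd2, Rad52 and Polq were the least stable and passed in 28, 30 and 30 of 42 alternatives. The other calls passed in 37 to 41. Of the 42 alternatives, 32 differed from the main fit only by leaving out 1 tumor.

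**Figure D1:**
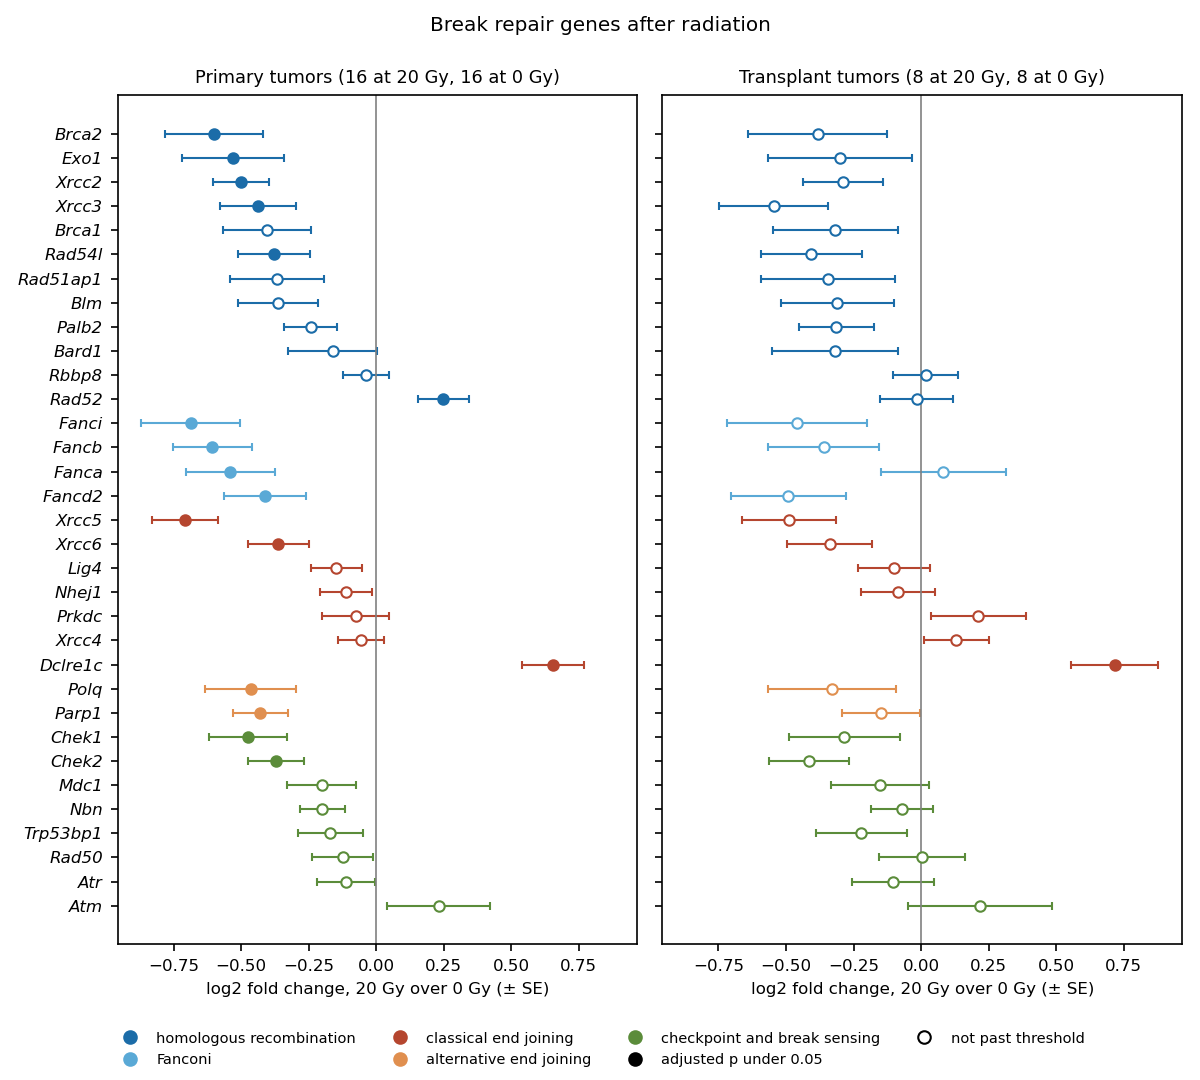
Log2 fold change of each of the 33 genes after 20 Gy against 0 Gy (x axis, ± SE), averaged over both antibodies, in primary tumors (left) and transplants (right). Filled points passed an adjusted p under 0.05. In primary tumors 15 points lie left of 0 and 2 right of it among the filled ones, and in transplants Dclre1c alone is filled, at 0.72.

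Among the 12 recombination genes, Brca2, Exo1, Xrcc2, Xrcc3 and Rad54l fell. Brca2 ranged from 6.88 to 19.3 CPM (median 11.3) in 16 unirradiated and from 4.24 to 19.9 CPM (median 7.81) in 16 irradiated primary tumors. Its log2 fold change was -0.60 ± 0.18 (SE, edgeR adjusted p = 0.0105), and 8 irradiated tumors lay below the lowest unirradiated one. Xrcc2, which supports strand exchange, had the smallest adjusted p of the class and went from a median of 10.8 CPM (6.60 to 15.5) to 7.32 CPM (5.57 to 11.7). It fell by 0.50 on the log2 scale (SE 0.10, edgeR adjusted p = 0.000285), and 14 of 16 irradiated tumors were below the unirradiated median, although the ranges overlapped.

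Exo1, the nuclease that extends resection of broken ends, fell by 0.53 (SE 0.19, edgeR adjusted p = 0.0285). Xrcc3, which also supports strand exchange, fell by 0.44 (SE 0.14, edgeR adjusted p = 0.0158), and Rad54l, a motor protein of strand invasion, fell by 0.38 (SE 0.13, edgeR adjusted p = 0.0261). Exons covering 15.4% of Rad54l lie opposite exons of Lrrc41, and whether the counting used the strand is not given in the sources used here. Rad52, which anneals single strands, was the only recombination gene that rose, by 0.25 on the log2 scale (SE 0.09, edgeR adjusted p = 0.0417) and from a median of 12.7 CPM to 14.95 CPM.

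The remaining 6 recombination genes did not pass the test. Brca1 (-0.40, SE 0.16, edgeR adjusted p = 0.0538), its ligase partner Bard1 (-0.16, SE 0.17) and Palb2, which bridges Brca1 to Brca2 (-0.24, SE 0.10), were among them. So were the helicase Blm (-0.36, SE 0.15), the strand-pairing cofactor Rad51ap1 (-0.37, SE 0.17) and Rbbp8, which starts resection (-0.04, SE 0.09). Their adjusted p-values ran from 0.0538 to 0.775 in the edgeR test.

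All 4 Fanconi genes fell. Fanci, a subunit of the clamp that is locked onto crosslinked DNA by ubiquitin, ranged from 9.16 to 29.6 CPM (median 14.7) without radiation and from 3.36 to 16.97 CPM (median 8.28) with it. The log2 fold change was -0.69 ± 0.18 (SE, edgeR adjusted p = 0.0038), and 9 of 16 irradiated tumors were below the lowest unirradiated one. Exons covering 16% of Fanci lie opposite those of Polg. Its clamp partner Fancd2 fell by 0.41 (SE 0.15, edgeR adjusted p = 0.0344).

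Fancb and Fanca belong to the core complex that places this ubiquitin mark. Fancb went from a median of 6.84 CPM (4.86 to 13.5) to 4.87 CPM (2.16 to 7.96). It fell by 0.61 on the log2 scale (SE 0.15, edgeR adjusted p = 0.00141). Fanca fell by 0.54 (SE 0.16, edgeR adjusted p = 0.0107), from a median of 13.8 CPM to 9.59 CPM. In both genes 14 of 16 irradiated tumors were below the unirradiated median and the ranges overlapped.

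Classical end joining genes moved in opposite directions. Xrcc5 had the largest fall of the 33 genes. It ranged from 27.1 to 56.6 CPM (median 36.9) in unirradiated and from 14.7 to 44.3 CPM (median 23.7) in irradiated primary tumors. The log2 fold change was -0.71 ± 0.12 (SE, edgeR adjusted p = 2.47e-05), with 12 of 16 irradiated tumors below every unirradiated one. Xrcc6 fell by 0.36 (SE 0.11, edgeR adjusted p = 0.0122), so both Ku subunits were lower. Exons covering 7.7% of Xrcc6 lie opposite those of Desi1.

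Dclre1c, which encodes the Artemis nuclease that trims ends before ligation, had the largest rise. It ranged from 8.66 to 16.5 CPM (median 13.5) in unirradiated and from 14.6 to 27.4 CPM (median 20.4) in irradiated primary tumors. The log2 fold change was 0.65 ± 0.11 (SE, edgeR adjusted p = 2.43e-05). Exons covering 3.8% of Dclre1c lie opposite those of Suv39h2. All 16 irradiated tumors were above the unirradiated median and 12 were above the highest unirradiated tumor. The other 4 genes of the class did not pass the test. They were the ligase Lig4 (-0.15, SE 0.09), its scaffold Xrcc4 (-0.06, SE 0.09), the filament protein Nhej1 (-0.11, SE 0.10) and Prkdc, the kinase that Ku recruits (-0.08, SE 0.12).

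Both alternative end joining genes fell. Parp1 went from a median of 124.2 CPM (88.7 to 170.2) to 88.5 CPM (51.2 to 132.4). It fell by 0.43 on the log2 scale (SE 0.10, edgeR adjusted p = 0.0014). Polq, the polymerase that pairs short homologies, fell by 0.46 (SE 0.17, edgeR adjusted p = 0.0307).

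Of the 8 checkpoint and sensing genes, the effector kinases Chek1 and Chek2 fell, and the other 6 did not pass the test. Chek1 fell by 0.47 (SE 0.15, edgeR adjusted p = 0.0116) and Chek2 by 0.37 (SE 0.10, edgeR adjusted p = 0.00626). The apical kinases Atm (0.23, SE 0.19) and Atr (-0.11, SE 0.11) and the chromatin adaptors Mdc1 (-0.20, SE 0.13) and Trp53bp1 (-0.17, SE 0.12) did not pass. Neither did the MRN subunits Nbn (-0.20, SE 0.08) and Rad50 (-0.12, SE 0.11).

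**Figure D2:**
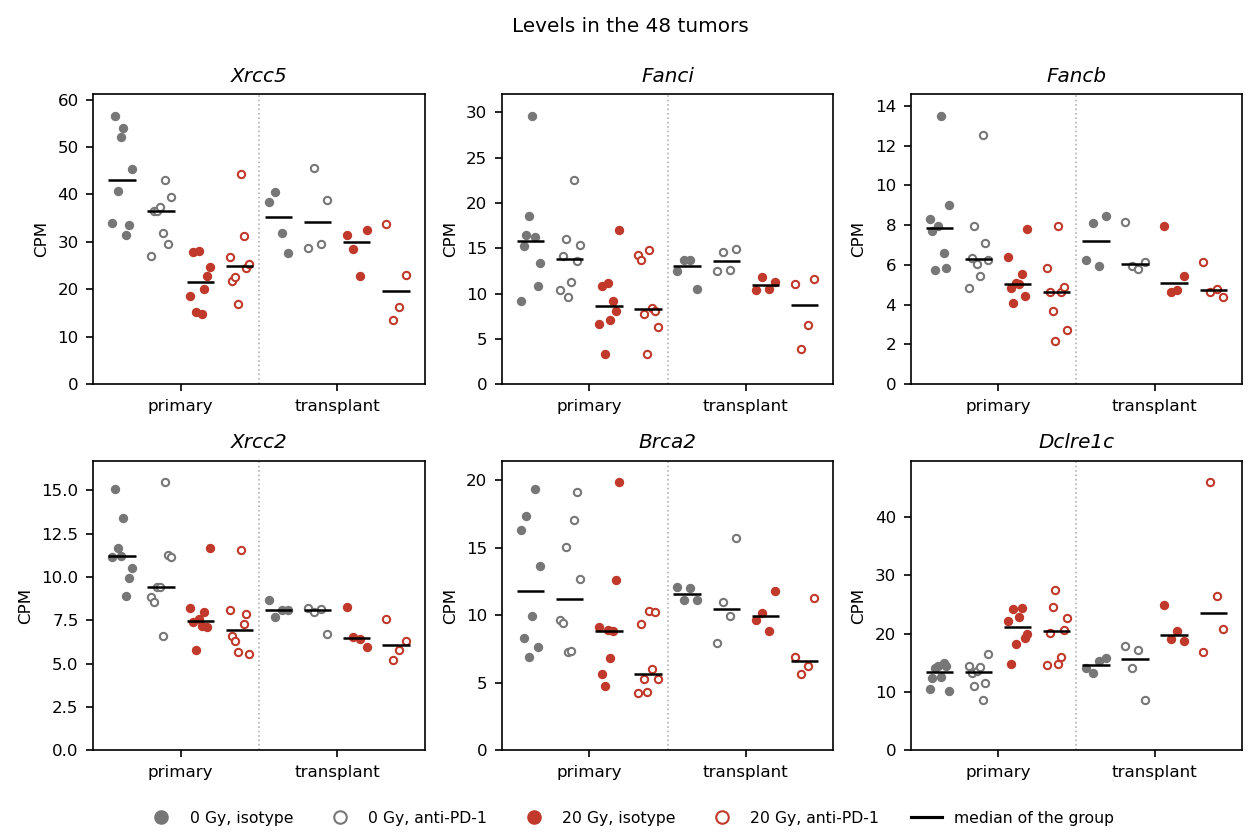
CPM of the 5 genes with lower and the 1 gene with higher levels after radiation that are described in most detail, one point per tumor in the 8 groups (y axis from 0, bars at the group median). Xrcc5 in irradiated primary tumors given isotype lies at 14.7 to 28.03 CPM, below all 8 unirradiated isotype tumors, whereas the points of Brca2 at 20 and 0 Gy overlap for each model and antibody.

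The promoters of the 4 genes with the largest absolute change, and that of Mdc1, the most abundant gene per length of the end joining and checkpoint classes that was not called and had an entry, are shown to let their sequences be compared. RefSeq windows (GRCm38.p6, 250 bases before to 50 after a start) matched 26 of the 33 genes. The 250 bases before the start read as follows, 5′ to 3′ on the strand of the gene, with matches to the searched motifs in capitals.
Xrcc5, chr1:72307171-72307420, plus strand: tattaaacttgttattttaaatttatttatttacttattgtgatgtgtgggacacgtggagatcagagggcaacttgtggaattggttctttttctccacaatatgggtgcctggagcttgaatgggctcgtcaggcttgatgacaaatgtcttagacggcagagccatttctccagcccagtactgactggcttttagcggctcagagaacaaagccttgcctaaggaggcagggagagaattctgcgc
Fanci, chr7:79392088-79392337, plus strand: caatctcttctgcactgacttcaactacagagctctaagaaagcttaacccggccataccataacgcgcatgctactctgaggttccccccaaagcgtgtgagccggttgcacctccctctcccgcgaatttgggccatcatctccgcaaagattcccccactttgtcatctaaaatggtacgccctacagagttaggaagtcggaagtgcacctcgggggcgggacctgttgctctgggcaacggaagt
Dclre1c, chr2:3423881-3424130, plus strand: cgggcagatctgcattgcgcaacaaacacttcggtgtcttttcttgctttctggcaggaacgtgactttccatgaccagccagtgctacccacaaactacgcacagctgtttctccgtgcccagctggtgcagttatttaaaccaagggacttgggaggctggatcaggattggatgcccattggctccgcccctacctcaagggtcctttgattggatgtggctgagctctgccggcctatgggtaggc
Fancb, chrX:164980342-164980591, plus strand: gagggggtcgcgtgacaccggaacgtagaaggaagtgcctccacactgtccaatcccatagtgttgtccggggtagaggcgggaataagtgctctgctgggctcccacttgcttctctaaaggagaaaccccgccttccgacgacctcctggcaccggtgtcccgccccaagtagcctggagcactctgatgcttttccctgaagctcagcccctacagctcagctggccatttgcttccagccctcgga
Mdc1, chr17:35841248-35841497, plus strand: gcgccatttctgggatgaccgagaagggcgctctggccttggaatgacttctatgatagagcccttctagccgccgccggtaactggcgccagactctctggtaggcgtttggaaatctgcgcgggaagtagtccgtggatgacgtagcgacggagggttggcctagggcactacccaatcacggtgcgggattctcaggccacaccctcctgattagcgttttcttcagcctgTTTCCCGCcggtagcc

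Short motifs of E2F and CHR type, which cell cycle regulators bind, were searched on both strands of the whole windows. E2F-type motifs were TTTGGCGC, TTTCGCGC, TTTCCCGC and TTTGCCGC, and CHR-type motifs were TTTGAA and TTCGAA. An E2F-type motif lay in 5 of the 26 genes and in 17.9% of their 28 windows, beside 2.26% of all 32851 windows. In each of the 5 genes it was TTTCCCGC, which 1.07% of all windows held. A CHR-type motif lay in 3 of the 26 genes and in 10.7% of their 28 windows, beside 19.2% of all windows. Among the 12 matched genes that fell after radiation in primary tumors 3 held an E2F-type motif, and among the other 14 matched genes 2 did. The 5 matches are shown with 12 bases on each side, 5′ to 3′ on the strand of the gene, with the motif or its reverse complement in capitals.
Brca2, chr5:150522441-150522472, plus strand: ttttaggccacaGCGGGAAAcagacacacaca
Bard1, chr1:71103162-71103193, minus strand: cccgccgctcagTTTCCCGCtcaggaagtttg
Xrcc6, chr15:82016311-82016342, plus strand: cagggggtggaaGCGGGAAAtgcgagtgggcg
Chek2, chr5:110839819-110839850, plus strand: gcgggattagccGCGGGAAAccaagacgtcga
Mdc1, chr17:35841470-35841501, plus strand: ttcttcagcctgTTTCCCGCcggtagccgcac
Brca2, Xrcc6 and Chek2 were among the genes that fell, and Bard1 and Mdc1 were not. A match is a string of letters in a window and not a shown binding site, and of the 4 genes with the largest changes none held these letters in its window.

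Each antibody arm was also compared alone. Under isotype antibody, 5 genes were lower in irradiated primary tumors, where 9.1% of all genes tested were lower, and 1 was higher, where 9.19% were higher. The 5 were Xrcc5 (-1.02, SE 0.18, edgeR adjusted p = 6.00e-05), Fanci (-0.82, SE 0.26), Fancb (-0.58, SE 0.21), Xrcc2 (-0.55, SE 0.15) and Parp1 (-0.47, SE 0.15), and the higher one was Dclre1c (0.67, SE 0.16). Of 26 alternatives, 16 of which left out 1 tumor, Xrcc5 passed in 26, Xrcc2 and Dclre1c in 25. Fanci and Parp1 passed in 21 and Fancb in 9. The number of calls in this arm was 3 without 20 Gy replicate 3 and 12 without 20 Gy replicate 8. Xrcc5 lay at 31.5 to 56.6 CPM in the 8 unirradiated and at 14.7 to 28.03 CPM in the 8 irradiated tumors of this arm, with no overlap.

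Under anti-PD-1, 4 genes were lower in irradiated primary tumors, where 3.25% of all genes tested were lower, and 1 was higher, where 7.92% were higher. Brca2 (-0.83, SE 0.26), Fancb (-0.63, SE 0.21), Xrcc3 (-0.61, SE 0.20) and Xrcc2 (-0.45, SE 0.15) fell, and Dclre1c (0.64, SE 0.16) rose. Of 25 alternatives, 16 of which left out 1 tumor, Dclre1c passed in 23 and Fancb in 16. Brca2 and Xrcc2 passed in 14 and Xrcc3 in 12. Xrcc5 was at -0.40 (SE 0.17, edgeR adjusted p = 0.129) in this arm. Whether the response of any gene differed between antibodies was not tested. Without 3 muscle-rich tumors, as described next, none of the 33 genes was lower in this arm, where 1.64% of all genes tested were. Dclre1c was then at 0.53 (SE 0.18, edgeR adjusted p = 0.0604). Rad52 was the only 1 of the 33 genes that was higher (0.45, SE 0.13, edgeR adjusted p = 0.0329), where 5.34% of all genes tested were.

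Most skeletal muscle markers and most cell cycle genes also passed the test of radiation in primary tumors. Of 9 skeletal muscle markers 8 passed the test as higher, where 16.8% of all genes tested did. Their median log2 fold change was 2.40, but a few tumors carried this value. The median summed level of the 9 markers was 1703 CPM in unirradiated and 1915 CPM in irradiated primary tumors, and in the isotype arm it was 1811 and 1431 CPM. In all, 3 irradiated primary tumors (isotype replicate 4 and anti-PD-1 replicates 4 and 8) exceeded every unirradiated tumor of either model in the mean of the 9 markers. Their means were 11.9, 12.8 and 10.9 log2 CPM, where the highest unirradiated one was 10.6 log2 CPM. Without these 3 tumors, a choice made after the data were seen, 8 of the 33 genes were lower, where 10.3% of all genes tested were lower, and 2 were higher, where 14% were higher. The 8 were Xrcc5, Fanci, Fancb, Xrcc2, Parp1, Chek1, Xrcc6 and Chek2, so 3 of 16 recombination and Fanconi genes remained. With the mean of the muscle list as a covariate in all 48 tumors, 17 were lower, where 14.4% of all genes tested were, and 2 were higher, where 14.7% were. In the main fit, where 16.8% of all genes tested were higher and 14.2% lower, macrophage markers rose too (7 of 8, median 0.65). Interferon response genes rose in full (8 of 8, median 2.06), while 2 of 6 mesenchymal markers fell. The part of these 3 lists in the result was not tested.

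Of 28 cell cycle genes, none of which is among the 33, 25 fell and none rose in irradiated primary tumors. Their median log2 fold change was -0.66, and 14.2% of all genes tested were lower in the same fit. Mki67, the standard marker of cycling cells, fell by 0.86 (SE 0.18, edgeR adjusted p = 0.000283), Top2a by 0.73 (SE 0.17) and Cdk1 by 0.55 (SE 0.18). Over all 48 tumors, the 3 with the lowest mean over the cell cycle list, at 4.43, 4.73 and 4.85 log2 CPM, were irradiated. In that order, they were primary anti-PD-1 replicate 4, which had the most muscle RNA, primary isotype replicate 3 and transplant anti-PD-1 replicate 2. They also had the 3 lowest means over the recombination and Fanconi genes, at 2.24, 2.65 and 2.69 log2 CPM. The first 2 also had the lowest end joining and checkpoint means, at 3.88 and 3.73 log2 CPM. Within unirradiated and irradiated primary tumors, the median Pearson r of the recombination and Fanconi genes with the cell cycle mean was 0.65 and 0.88. In transplants it was 0.35 and 0.84. For the end joining and checkpoint genes it was 0.41 and 0.63 in primary tumors and 0.43 and 0.67 in transplants. Single genes varied widely in unirradiated transplants, from -0.87 to 0.72 in the recombination and Fanconi class and from -0.81 to 0.69 in the other. Such r values were not computed for all genes. With the cell cycle mean as a covariate, none of the 33 genes was lower in irradiated primary tumors and 5 were higher, namely Rad52 (0.42), Exo1 (0.36), Bard1 (0.44), Rbbp8 (0.25) and Atm (0.73), while Dclre1c was at 0.26 (edgeR adjusted p = 0.115). In that fit 4.39% of all genes tested were lower and 7.66% were higher. A covariate that itself moves with radiation takes up any part of the response that it shares, so this fit and the main one answer different questions.

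**Figure D3:**
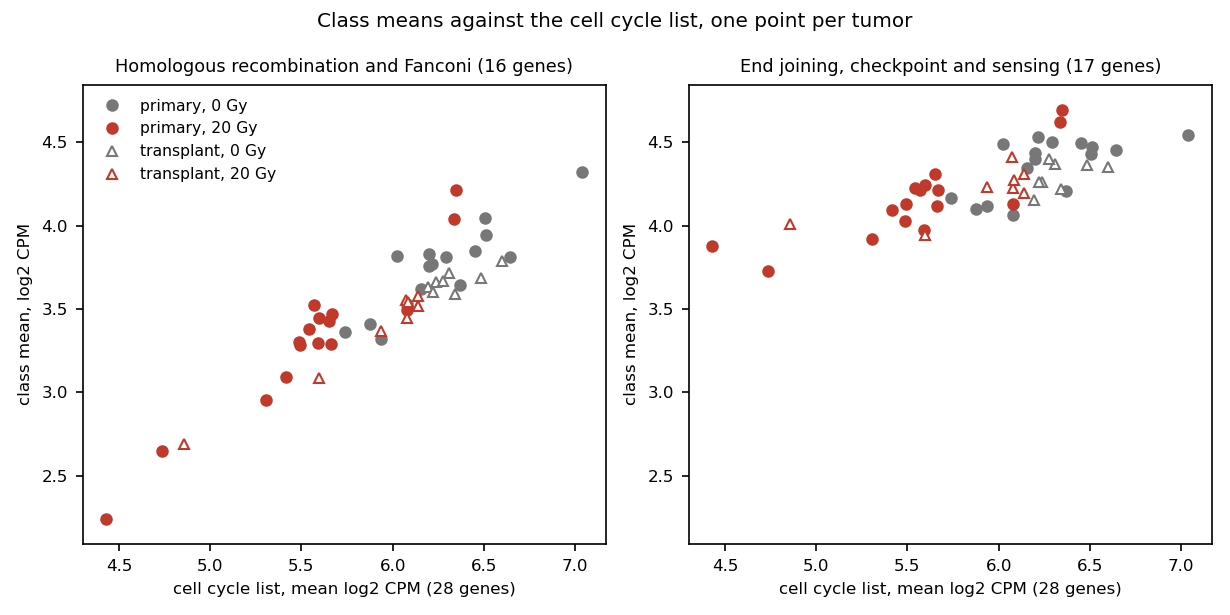
Mean log2 CPM of the 16 recombination and Fanconi genes (left) and the 17 end joining, checkpoint and sensing genes (right) against the mean of the 28 cell cycle genes (x axis, log2 CPM), one point per tumor. The left-hand means run from 2.24 to 4.32 and are lowest in the irradiated tumors with the lowest cell cycle means, and the right-hand means run from 3.73 to 4.70.

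Class means were taken in each tumor. The recombination and Fanconi mean was 3.74 ± 0.26 log2 CPM (SD, n = 16) in unirradiated and 3.32 ± 0.47 (n = 16) in irradiated primary tumors. The end joining and checkpoint mean was 4.36 ± 0.17 and 4.16 ± 0.25. The difference between the classes (first minus second) was -0.62 ± 0.15 log2 units without and -0.84 ± 0.26 with radiation, and the ranges overlapped. In transplants it was -0.63 ± 0.07 (n = 8) and -0.85 ± 0.20 (n = 8). These means are descriptions, since the genes were chosen with earlier results known.

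A list of 60 other repair genes gave a wider context. In irradiated primary tumors 22 were lower and 1 was higher, where 14.2% and 16.8% of all genes tested were. The median log2 fold change of the 60 was -0.18. Among the largest falls were those of the histone variant H2afx (-0.72, SE 0.15), Tdp1, which frees trapped topoisomerase (-0.66, SE 0.10), and the resolvase Gen1 (-0.58, SE 0.12). Mad2l2, an adaptor that limits resection, rose by 0.20 (SE 0.07, edgeR adjusted p = 0.0259). In transplants none of the 60 passed the edgeR test and 9 had an unadjusted p under 0.05. Of 12 p53 target genes 9 rose in primary tumors, among them Cdkn1a (2.33, SE 0.17) and Mdm2 (0.45, SE 0.08), and 6 rose in transplants. The shares of all genes tested that were higher in these fits were 16.8% and 5.85%.

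The same question was then asked in transplants. Averaged over antibodies, Dclre1c was the only 1 of the 33 genes that was higher, where 5.85% of all genes tested were higher, and none was lower (8 genes had an unadjusted p under 0.05). DESeq2 called 3 genes lower, where it called 2.18% of all genes tested lower, and limma voom 1, where it called 1.67%. The median log2 fold change of the 33 genes was -0.29, against -0.02 for all genes tested. Dclre1c was measured at 14.1, 13.2, 15.3 and 15.9 CPM in the untreated transplants and at 24.9, 19.1, 20.5 and 18.7 CPM after 20 Gy with isotype. With anti-PD-1 it was at 17.9, 14.2, 17.2 and 8.62 CPM without and at 16.8, 45.9, 26.4 and 20.8 CPM with radiation. The log2 fold change over both arms was 0.72 ± 0.16 (SE, edgeR adjusted p = 0.00248), and 7 of 8 irradiated transplants were above every unirradiated one.

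Within the isotype arm no gene passed the edgeR test, where 1.92% of all genes tested were called in either direction, and 2 genes had an unadjusted p under 0.05. DESeq2 and limma voom also called none there, each with 2 genes at an unadjusted p under 0.05. Within the anti-PD-1 arm Dclre1c rose (0.92, SE 0.23, edgeR adjusted p = 0.0464), where 0.538% of all genes tested were higher. Over the alternatives run for that arm its adjusted p ranged from 0.0108 to 0.44.

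Several genes that fell in primary tumors had negative values in transplants without passing the test. Xrcc5 was at -0.49 (SE 0.17, edgeR adjusted p = 0.08), from 38.4, 40.4, 31.9 and 27.7 CPM in untreated transplants to 31.4, 28.6, 22.9 and 32.5 CPM after 20 Gy with isotype. Under anti-PD-1 its levels were 28.6, 45.6, 29.5 and 38.8 CPM without and 33.8, 13.6, 16.3 and 23.0 CPM with radiation. The groups overlapped in both arms. Xrcc3 (-0.55, SE 0.20), Fancd2 (-0.49, SE 0.21), Fanci (-0.46, SE 0.26) and Chek2 (-0.41, SE 0.15) were similar in size to their values in primary tumors, while Fanca was at 0.08 (SE 0.23).

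Whether the 2 models differed in their response was tested directly. None of the 33 genes passed the edgeR test of the difference between transplants and primary tumors in the response to 20 Gy, where 0.0259% of all genes tested passed, and 1 gene had an unadjusted p under 0.05. DESeq2 and limma voom called none either, with 1 and 0 genes at an unadjusted p under 0.05. The gene was Fanca, whose response was higher in transplants by 0.62 (SE 0.28, edgeR adjusted p = 0.521). For Dclre1c the difference was 0.06 (SE 0.20) and for Xrcc5 0.22 (SE 0.21).

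The models were next compared at each treatment. At 0 Gy with isotype no gene differed between transplants and primary tumors in the edgeR test, where 10.3% of all genes tested did, and 5 had an unadjusted p under 0.05. DESeq2 called 1 gene lower, where it called 8.57% of all genes tested lower, and limma voom none, with 6 and 5 genes at an unadjusted p under 0.05. The largest differences among these 5 were in Bard1 (0.58 higher in transplants, SE 0.28) and Fancd2 (-0.57, SE 0.27). At 0 Gy with anti-PD-1 none differed either in edgeR, DESeq2 or limma voom, where 7.35% of all genes tested did in edgeR, with 3, 4 and 3 genes at an unadjusted p under 0.05.

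After 20 Gy with isotype, Fanca was higher in transplants, where 2.47% of all genes tested were higher. It was measured at 17.6, 20.5, 16.4 and 20.2 CPM in the 4 transplants and at 5.07 to 16.04 CPM (median 9.59) in the 8 primary tumors, with no overlap. The log2 difference was 0.89 ± 0.28 (SE, edgeR adjusted p = 0.0496), and it passed in 5 of 21 alternatives, with adjusted p-values from 0.0266 to 0.154. Exons covering 10.5% of Fanca lie opposite Zfp276. After 20 Gy with anti-PD-1 no gene differed in edgeR, where 6.76% of all genes tested did, with 7 genes at an unadjusted p under 0.05. DESeq2 called 3 lower in transplants, where it called 6.9% of all genes tested lower, and limma voom none, with 9 and 7 genes at an unadjusted p under 0.05.

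No difference between anti-PD-1 and isotype was detected for these genes. In none of the 4 comparisons with isotype (primary or transplant, 0 or 20 Gy) did a gene pass in edgeR, where 0% of all 19327 genes tested passed. DESeq2 and limma voom called none of the 33 either. DESeq2 called 0.19% of all genes tested higher and 0.0475% lower in irradiated primary tumors, its largest share in these comparisons. None of the 33 had an unadjusted p under 0.05 in edgeR, DESeq2 or limma voom. Fitted log2 fold changes ran from -0.54 to 0.40 in irradiated transplants and from -0.31 to 0.16 in unirradiated primary tumors.

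Tumors of one group differed more among primaries than among transplants. The SD of log2 CPM within groups, pooled over treatments, was larger in primary tumors for 30 of the 33 genes, beside 79.8% of all genes tested. It was larger for all 16 recombination and Fanconi genes, whose median SD was 0.48 in primary tumors and 0.27 in transplants. The exceptions were Dclre1c (0.28 and 0.41), Xrcc5 (0.34 and 0.37) and Nhej1 (0.21 and 0.24), all of classical end joining. Exo1 had the largest spread in primary tumors, with an SD of 0.62.

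The 2 single libraries of line 402230 went against their labels. In the library labelled as the parental tumor, 6 of 7 T cell markers were at 0, and 5 endothelial markers summed to 27 counts. Its 8 macrophage markers summed to 14.5 CPM, where the 48 tumors had 844 to 5543 CPM. The library labelled as the cell line had 1094 CPM of macrophage and 321 CPM of endothelial markers, as the tumors did, with no T cell, macrophage or endothelial marker at 0. These libraries also carried single index barcodes where the 48 tumors carried dual ones. Both are therefore given as labelled, with no direction drawn between tumor and culture. Their CPM and the ranges beside them were scaled over all 50 libraries and so differ slightly from those above.

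In the library labelled as the parental tumor, 27 of the 33 genes were above all 16 unirradiated primary tumors. The share of all genes tested that lay above this range was not counted, so 27 is not shown to be particular to these genes. Brca1 was at 79.8 CPM, where the unirradiated primary tumors had 16.5 to 36.7 CPM, and Fancb was at 29.1 CPM, where they had 4.96 to 13.0 CPM. Dclre1c, at 7.95 CPM, was the only gene below all of them (8.54 to 17.1 CPM). Its cell cycle mean was 7.70 log2 CPM, above the highest unirradiated primary tumor at 7.02 log2 CPM.

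In the library labelled as the cell line, 23 of the 33 genes lay within the range of the 8 unirradiated transplants, 6 below it and 4 above it. Fanca (7.35 CPM, where transplants had 13.3 to 19.6 CPM) and Parp1 (71.1 CPM, where transplants had 81.9 to 129.7 CPM) were below, and Xrcc5 (52.0 CPM, where transplants had 27.1 to 46.4 CPM), Lig4, Prkdc and Atr were above. The share of all genes tested outside this range was not counted either. With 1 library each, the differences of both libraries have no replicate check.

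**Figure D4:**
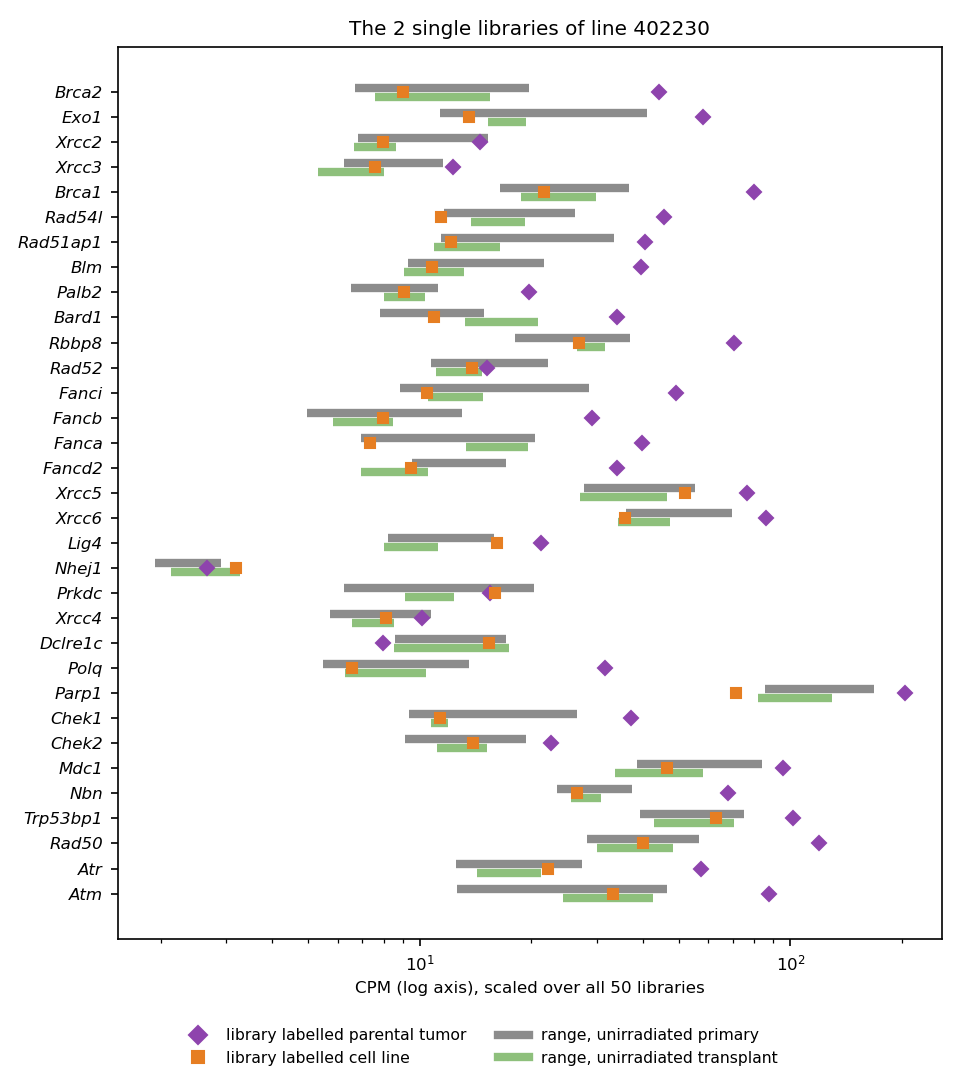
CPM (log axis) of each of the 33 genes in the library labelled parental tumor (diamonds) and the library labelled cell line (squares), beside the ranges of 16 unirradiated primary tumors and 8 unirradiated transplants (bars). Diamonds lie right of the primary range for 27 genes and left of it for Dclre1c, and squares lie within the transplant range for 23. The shares of all genes tested were not counted.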

How the data were processed

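RNA was sequenced from 48 tumors and 2 single libraries with a stranded poly(A) kit, and, per the labels and the methods, the authors used Trimmomatic 0.36 for trimming, STAR for alignment to mm10 with GENCODE M17, and HTSeq for counts per gene. The deposited table holds these counts, not normalized, for 37469 Ensembl genes, of which 37408 were matched to a symbol through the GENCODE M21 annotation of GRCm38. The strand setting of the counting is not given in the sources used here. Libraries held 31810461 to 54008259 counts, and none was a duplicate (over 136 within-group pairs, chi-square per degree of freedom was at least 85.6). Replicate numbers were given in accession order. Each primary tumor came from its own induction, but transplants share a cell line, so p-values there measure spread between grafts of one line.

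Genes were filtered with filterByExpr and scaled by TMM over all 48 tumors, and 15 comparisons were tested with the quasi-likelihood F test of edgeR 4.0.16 (R 4.3.3), 1 mean per group, with Benjamini-Hochberg adjustment over 19327 genes and a threshold of 0.05. Every SE is the log2 fold change divided by the root of F. The test of radiation under isotype antibody in primary tumors was also run on simulated counts with known changes, drawn independently for each gene. The other comparisons were not checked in this way. Alternatives were DESeq2 1.42.0, limma voom 3.58.1, RLE scaling, no filter, only the groups compared, covariates, the library labelled parental tumor added, 48 leave-one-out fits and, added after the data were seen, no scaling and 3 muscle-rich tumors left out. Log2 CPM used a prior count of 2. Levels per length used the union of exons, and overlaps and positions come from GENCODE M21. The 33 genes, their classes and all lists were chosen with earlier results of these data known. All 33 genes are named, and of the other repair genes the up to 4 with the largest change in each direction, 1 of which is not reported here, plus Mki67, Top2a, Cdk1, Cdkn1a, Mdm2 and Trp53.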

Additional observations from a re-analysis of the deposited data

Results flagged for a closer look

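Of 264 gene and group pairs, 12 had a tumor whose gap to its nearest neighbor was large for the range of its group (Dixon's ratio on log2 CPM, 95% level), in 11 genes and 7 tumors. Chance flags about 1 in 20 groups, so 12 of 264 is near that share. Primary 0 Gy anti-PD-1 replicate 6, the tumor with the highest cell cycle mean, was highest for Rad51ap1 (33.8 CPM), Rad54l (26.6 CPM), Exo1 (41.6 CPM) and Chek1 (26.9 CPM). Primary 20 Gy anti-PD-1 replicate 4, the tumor with the most muscle RNA, was lowest for Xrcc3 (1.79 CPM), Fancd2 (3.17 CPM) and Chek1 (2.73 CPM). Rad52 was highest in primary 0 Gy isotype replicate 5 (23.0 CPM) and Chek2 was highest in primary 20 Gy anti-PD-1 replicate 5 (14.8 CPM). Among transplants, Xrcc2 was lowest in 0 Gy anti-PD-1 replicate 4 (6.75 CPM), Lig4 was lowest in 20 Gy anti-PD-1 replicate 3 (7.45 CPM) and Nhej1 was lowest in 20 Gy anti-PD-1 replicate 4 (1.93 CPM).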

How the results depend on the processing

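The count of genes called after radiation in primary tumors (17, both antibodies) ranged from 14 to 21 when single tumors were left out. Here and below, paired percentages in brackets are the shares of all genes tested that were higher and lower in the same fit. The count moved to 10 without the muscle-rich tumors (14% and 10.3%) and to 5, all higher, with the cell cycle covariate (7.66% and 4.39%). Under that covariate the number of the 33 genes below 0 went from 30 to 9. Of the 17 called genes 9 changed sign, to 0.18 (Rad54l), 0.36 (Exo1), 0.0598 (Xrcc3), 0.10 (Fanca), 0.12 (Fancd2), 0.0411 (Fanci), 0.0587 (Xrcc6), 0.0559 (Polq) and 0.16 (Chek1), of which Exo1 passed the test (edgeR adjusted p = 0.00176). The cause of each change was not tested.

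In the isotype arm the 6 calls became 3 with only the groups compared (8.45% and 4.52%) and 2 with the cell cycle covariate (4.35% and 2.82%). They became 14 with the library labelled parental tumor added (10.6% and 11.1%), which stands outside the primary tumors. They ranged from 3 to 12 with single tumors left out, at 3 without 20 Gy replicate 3 and 12 without 20 Gy replicate 8. In the anti-PD-1 arm the 5 calls became 2 with no filter (3.09% and 1.28%) and 1 with only the groups compared (3.72% and 1.12%). They became 2 with the cell cycle covariate (3.88% and 1.39%) and 1 without the muscle-rich tumors (5.34% and 1.64%). They ranged from 1 to 13 with single tumors left out, at 1 without 0 Gy replicate 6 or 20 Gy replicates 3, 4 or 8, at 3 without 0 Gy replicates 3, 7 or 8 or 20 Gy replicate 6, and at 13 without 20 Gy replicate 5.

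In transplants, the 1 call over both arms became 4 in DESeq2 (7.14% and 2.18%) and 2 in limma voom (6.29% and 1.67%). It became 3 with only the groups compared (9.55% and 4.16%) and 3 with the muscle covariate (6.68% and 2.29%). With single tumors left out it was 1 to 2, at 2 without 20 Gy anti-PD-1 replicate 1. The isotype arm gained 1 call with only the groups compared (5.12% and 1.1%). The 1 call of the anti-PD-1 arm went to 0 with no scaling (0.352% and 0.0362%) and with no filter (0.076% and 0.00543%). It was also 0 with only the groups compared (0.0059% and 0%) and with the cell cycle covariate (0.135% and 0.0103%). With single tumors left out it was 0 to 1, at 0 without 0 Gy replicates 1, 2 or 4 or 20 Gy replicates 2 or 3.

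For transplants against primary tumors at 0 Gy with isotype, 0 calls became 1 in DESeq2 (5.06% and 8.57%). They became 1 with only the groups compared (3.98% and 5.99%) and 5 with the cell cycle covariate (5.33% and 8.55%). They became 2 with the library labelled parental tumor added (3.35% and 5.39%). With single tumors left out they were 0 to 1 (1 without primary replicate 4 or 6). At 0 Gy with anti-PD-1 the 0 calls became 2 with only the groups compared (3.98% and 4.93%) and 4 with the cell cycle covariate (5.79% and 5.75%). At 20 Gy with isotype, 1 call became 0 with RLE (2.19% and 2.71%) or no scaling (1.92% and 2.66%). It was also 0 with no filter (0.876% and 0.847%) or no muscle-rich tumors (2.28% and 2.87%). It became 7 with the cell cycle covariate (4.4% and 3.92%). With single tumors left out it was 0 to 1 (0 without any of the 4 transplants or of primary replicates 1 to 7). At 20 Gy with anti-PD-1, 0 calls became 3 in DESeq2 (3.83% and 6.9%). They became 8 with the cell cycle covariate (6.61% and 7.49%) and 5 without the muscle-rich tumors (4.58% and 5.32%). With single tumors left out they were 0 to 5 (5 without primary replicate 4, 1 without transplant replicate 4).

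No paired analysis was possible because replicate numbers were given in accession order. The calls in primary tumors over both antibodies were followed through 42 alternatives, of which 32 left out a single tumor. Xrcc5, Dclre1c, Xrcc2, Xrcc6, Fancb, Fanci, Parp1, Chek1 and Chek2 each passed in the same direction in 41, all but the cell cycle covariate. Brca2, Fanca and Xrcc3 passed in 40, Exo1 in 38, Rad54l in 37, Rad52 and Polq in 30 and Fancd2 in 28. Groups of 4 transplants a group limit what can be seen there.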
